A study of Nicotiana tabacum with 9 samples.

Results

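The comparison described here is that of tobacco (Nicotiana tabacum) pollen tubes grown for 3 h at RT with tubes grown for 6 h at RT, neither of which received heat. Its members were taken from the condition labels: 3 libraries labelled 3 h RT (RT 3 h) and 3 labelled 6 h RT (RT 6 h), which are 6 of the 9 libraries of the series. Of the 74044 genes in each count table, 46118 had at least 1 count in these libraries, and 23043 were tested, those above 0.5 CPM (counts relative to the library total, in ppm) in 2 or more of the 6 libraries. Both groups came from plants of the cultivar Samsun-NN, with no mutation or transgene named, whose pollen was pooled from several plants for an experiment, wetted in liquid medium with sucrose and PEG and spread on cellophane over solid medium. Growing time was thus the only labelled difference. The sources used here do not say if each library of a time had its own pool of pollen, so p-values measure the spread between these samples, which may be technical. The tubes grew in vitro without a pistil, and the tubes and their contents, including the reproductive cells inside, were extracted together.

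A pollen grain hydrates, germinates and extends a tube whose tip grows by fusion of vesicles that bring membrane and wall material. The tube is 1 vegetative cell that carries the generative cell, which in tobacco divides into the sperm cells during tube growth. Tip growth is known to need proton pumping across the plasma membrane, a dynamic actin cytoskeleton and a steady supply of membrane lipids, and tubes start with a large store of transcripts made before the pollen was shed. The comparison asks which transcripts were at other levels after the additional hours of growth. Because whole tubes were extracted, a change in the share of one cell type and a change in RNA per cell cannot be told apart.

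The libraries held 22899975 to 26772286 counts on genes at RT 3 h and 23393816 to 26511864 at RT 6 h, so the limit of 0.5 CPM stood for 11.45 to 13.39 counts. No library was a copy of another, with a chi-square of 1.93 to 6.06 per degree of freedom between counts of libraries of 1 time. RT 3 h replicate 1 stood somewhat apart: it was the RT 3 h library farthest from the RT 6 h mean in 56.7% of the 3528 genes past the FDR limit defined below, against 22.6% for replicate 2 and 20.7% for replicate 3. Without it, 198 genes were higher and 157 lower at RT 6 h past both limits, against 210 and 181 with it. Some regulators and cytoskeletal genes known from Arabidopsis pollen were looked up. The regulators were picked after their values had been seen, and presence alone does not test pollen identity. Homologs of the MIKC* MADS-box genes AGL30 and AGL104, of WRKY34 and of the pollen LIM proteins PLIM2b and PLIM2c were all present in every library, at up to 1053 CPM at RT 3 h for a PLIM2b homolog. Homologs of the WLIM proteins, which belong to the same LIM family, were abundant as well. Marker lists of leaf and other tissues were not analysed here, since no gene descriptions were at hand.

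Most transcripts kept their level. The median log2 fold change (log2FC, positive when higher at RT 6 h) of all tested genes was 0.011. With edgeR's quasi-likelihood test on TMM-scaled counts, 1.7% of the tested genes passed both limits, an absolute log2FC above 1 and a false discovery rate (FDR) of at most 0.005. These were 0.911% of genes higher and 0.785% lower at RT 6 h. The FDR limit alone was passed by 15.3%, of which 1702 genes (7.39% of those tested) were higher and 1826 (7.92%) lower, and the changes were small: 1772 of them moved by less than 0.5 and 1365 by 0.5 to 1 on the log2 scale, with a median absolute log2FC of 0.499. In 38.5% of all tested genes the 3 libraries of one time did not overlap those of the other, and this held for every gene past both limits. The direction of small changes depended on the scaling. TMM factors were 1.03 to 1.08 at RT 3 h and 0.938 to 0.967 at RT 6 h, and with plain library totals the median log2FC of all genes was -0.133. The share of higher genes among those past both limits was then 28.5% in place of 53.7%, and among those past the FDR limit 19.5% in place of 48.2%. On plain totals 726 of all tested genes were higher and 2991 lower past the FDR limit. Falls that outnumber rises in a list on plain totals were thus found among all genes too. All changes below are relative to the TMM scale, and a rise that did not pass with plain totals is named as such.

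Genes that rose and genes that fell past both limits differed in level at RT 3 h, which sorting genes by their change brings about in part. On exon length (RPKM, the CPM value per kilobase of exon, TMM scale), the genes higher past both limits had a median of 0.564 at RT 3 h and 1.73 at RT 6 h. The lower ones went from a median of 3.53 to 1.45, while the median of all genes was 1.74 and 1.72. At RT 6 h the medians of the higher and lower genes, 1.73 and 1.45, were thus closer than at RT 3 h. With genes split into 5 equal groups by RPKM, the lowest group held 52 higher and 20 lower genes past both limits, and the highest group 20 higher and 48 lower. Since the filter and the power of the test depend on the counts, the share past the FDR limit grew from 1.8% in the lowest group to 41.7% in the highest. Of the genes past both limits, 143 reached a group mean of 5 CPM at one of the times, 54 of them higher and 89 lower. For 9 higher genes every RT 3 h library had at most 3 counts, and 0 lower genes had so few in every RT 6 h library. Genes with a single exon block made up 15.2% of the higher and 16.6% of the lower genes, beside 6.8% of all tested genes. Long non-coding RNAs, matched by gene ID to an annotation of the cultivar K326, made up 6.19%, 7.18% and 5.95% in the same order.

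**Figure D1:**
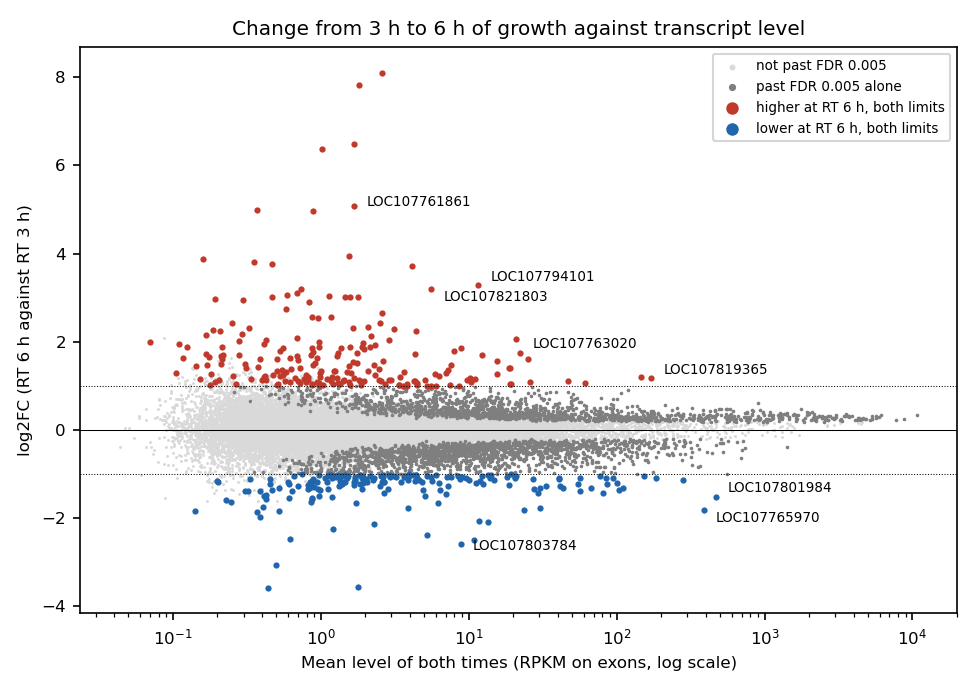
Change in transcript level from RT 3 h to RT 6 h (log2FC, vertical axis) against the mean level of both times (RPKM on exons, log scale) for the 23043 tested genes, 1 point per gene, with dotted lines at a log2FC of 1 and -1. Red and blue points are the 210 genes higher and the 181 lower past both limits, and the named rise of LOC107761861 (log2FC 5.08) lies at a low level while the fall of LOC107765970 (log2FC -1.81) lies among the most abundant genes.

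The largest fall among genes of at least 5 CPM was that of LOC107803784, a gene with 1 exon block on scaffold NW_015938022.1 from 1902 to 2598 (minus strand, TN90 assembly). It had 9.96, 11.0 and 10.6 CPM in the RT 3 h libraries and 2.03, 1.73 and 1.53 CPM in the RT 6 h libraries (log2FC -2.58 ± 0.13 SE, FDR 1.37e-14). The groups lay far apart, and its level per exon length went from 15.1 to 2.53 RPKM. Neither this gene nor the other unnamed genes of this paragraph and the next carried an Arabidopsis homolog in the tables used here, so they are given by identifier only.

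A pair of neighbouring single-block genes fell together. LOC107765982 and LOC107765990 lie 2951 bases apart on the minus strand of scaffold NW_015794692.1, from 2715 to 3519 and from 6470 to 7277. LOC107765982 had 15.4, 14.8 and 14.1 CPM at RT 3 h and 2.12, 2.73 and 3.01 CPM at RT 6 h (log2FC -2.49 ± 0.12 SE, FDR 2.79e-15). LOC107765990 had 18.1, 17.5 and 17.3 CPM and then 3.71, 3.90 and 4.74 CPM (log2FC -2.10 ± 0.10 SE, FDR 5.23e-15). All RT 3 h values of both genes lay above all RT 6 h values, and where 2 genes are near copies, reads may be split between them. Of 4672 neighbouring pairs of tested genes, only 3 had both members past both limits, the other pairs being LOC107767014 with LOC107767015 and LOC107810892 with LOC107810896, all higher at RT 6 h, and no pair had members called in opposite directions.

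Abundant transcripts were among those that fell. LOC107765970 (scaffold NW_015886036.1, 109621 to 112071, 8 exon blocks) had 936, 825 and 769 CPM at RT 3 h and 250.1, 237 and 235 CPM at RT 6 h (log2FC -1.81 ± 0.06 SE, FDR 8.79e-18). LOC107801984 (scaffold NW_015934918.1, 8544 to 10938, 7 exon blocks) had 984, 901 and 869.9 CPM at RT 3 h and 326, 324 and 318 CPM at RT 6 h (log2FC -1.51 ± 0.05 SE, FDR 9.36e-18). In both, the RT 6 h libraries held about the same value while the RT 3 h libraries differed a little, with replicate 1 highest. Per exon length they went from 602 to 172 and from 690.3 to 242 RPKM. LOC107773204 fell at a lower level, from 109.7, 111 and 103 CPM to 31.2, 28.3 and 31.7 CPM (log2FC -1.83 ± 0.06 SE, FDR 9.36e-18). The 10 genes past both limits with the highest mean CPM comprised 9 that fell and 1 that rose.

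The other 7 falls among these 10 were between 2.14-fold and 2.68-fold. LOC107823631 went from a mean of 733 to 334 CPM (log2FC -1.13) and LOC107809882 from 558 to 260.5 CPM (log2FC -1.10). For LOC107827622, LOC107797411 and LOC107799267 the mean CPM values were 474, 336 and 292 at RT 3 h and 185, 126 and 118 at RT 6 h. LOC107796523 had 296 and 127 CPM and LOC107816586 233 and 98.8 CPM. The single abundant rise was that of LOC107819365, a single-block gene on scaffold NW_015822001.1 (8649 to 9478), with 83.3, 88.1 and 91.7 CPM at RT 3 h and 193, 209 and 188 CPM at RT 6 h (log2FC 1.17 ± 0.06 SE, FDR 8.08e-15). Its groups did not overlap, and its level per exon length went from 106 to 238 RPKM.

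The remaining genes of the 10 largest falls were LOC107789753 (mean 15.5 to 2.99 CPM, log2FC -2.37), LOC107768720 (31.0 to 7.41 CPM, log2FC -2.06), LOC107782078 (log2FC -1.78), LOC107795935 (log2FC -1.77) and LOC107761229. LOC107761229 is a homolog of Arabidopsis SHM7, a serine hydroxymethyltransferase, the enzyme class that moves 1-carbon units from serine to folate. It had 6.56, 7.78 and 9.80 CPM in the RT 3 h libraries and 2.03, 1.61 and 1.90 CPM in the RT 6 h libraries (log2FC -2.13 ± 0.16 SE, FDR 4.19e-11). No RT 3 h value reached down to the RT 6 h values, although the RT 3 h libraries spread over 1.64 CPM (SD, n = 3).

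The largest rise was that of LOC107761861 (scaffold NW_015874836.1, 820 to 7967, plus strand, 8 exon blocks), which was close to absent at RT 3 h. It had 4, 4 and 7 counts in the RT 3 h libraries, or 0.162, 0.143 and 0.270 CPM, and 5.97, 7.44 and 6.43 CPM in the RT 6 h libraries (log2FC 5.08 ± 0.23 SE, FDR 2.11e-15). LOC107770959 had 0.445, 0.713 and 1.04 CPM at RT 3 h and 9.37, 10.7 and 9.40 CPM at RT 6 h (log2FC 3.73 ± 0.17 SE, FDR 2.53e-15). In both genes even the highest RT 3 h library was several-fold below the lowest RT 6 h library.

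The third rise in size was in a gene with a known reproductive counterpart. LOC107794101, with 1 exon block on scaffold NW_015923454.1 from 43464 to 44210, is a homolog of Arabidopsis DAZ1, a C2H2 zinc finger repressor that acts in division of the generative cell and in sperm differentiation under the MYB factor DUO1. It had 1.54, 1.36 and 1.89 CPM at RT 3 h and 16.2, 16.2 and 14.3 CPM at RT 6 h (log2FC 3.29 ± 0.13 SE, FDR 7.63e-17). The RT 6 h values were 9.76-fold the RT 3 h values on average and the groups were far apart. LOC107820264, the most abundant of 4 homologs of DUO1 itself, had 5.02, 5.07 and 6.45 CPM and then 7.25, 7.40 and 7.30 CPM, which did not overlap but did not pass the FDR limit (log2FC 0.41 ± 0.11 SE, FDR 0.00804). It passed without RT 3 h replicate 3, at a log2FC of 0.53 and an FDR of 0.00145. The other DUO1 homologs, LOC107810051, LOC107816633 and LOC107825179, had log2FC values of 0.38, -0.40 and -0.09 with FDRs of 0.115, 0.103 and 0.701.

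LOC107821803 rose from 2.10, 1.39 and 1.66 CPM to 16.2, 13.2 and 17.9 CPM (log2FC 3.20 ± 0.14 SE, FDR 9.43e-16), and LOC107809861 from 8.78, 8.03 and 7.06 CPM to 32.3, 32.8 and 34.7 CPM (log2FC 2.07 ± 0.08 SE, FDR 1.83e-16). A homolog of Arabidopsis GDPD3, LOC107763020, was the only lipid gene among the 10 largest rises. Glycerophosphodiester phosphodiesterases such as GDPD3 split deacylated phospholipids into glycerol 3-phosphate and the head group. It had 14.6, 15.4 and 15.4 CPM at RT 3 h and 46.6, 49.7 and 56.7 CPM at RT 6 h (log2FC 1.75 ± 0.08 SE, FDR 7.01e-16), with no overlap. The other large rises were LOC107813607 (log2FC 2.24), LOC107806137 (log2FC 2.12), LOC107760504 (log2FC 1.86) and LOC107808821 (log2FC 1.80). Each of these 20 largest changes kept its call under every other scaling, filter and tool run and when any library was left out.

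**Figure D2:**
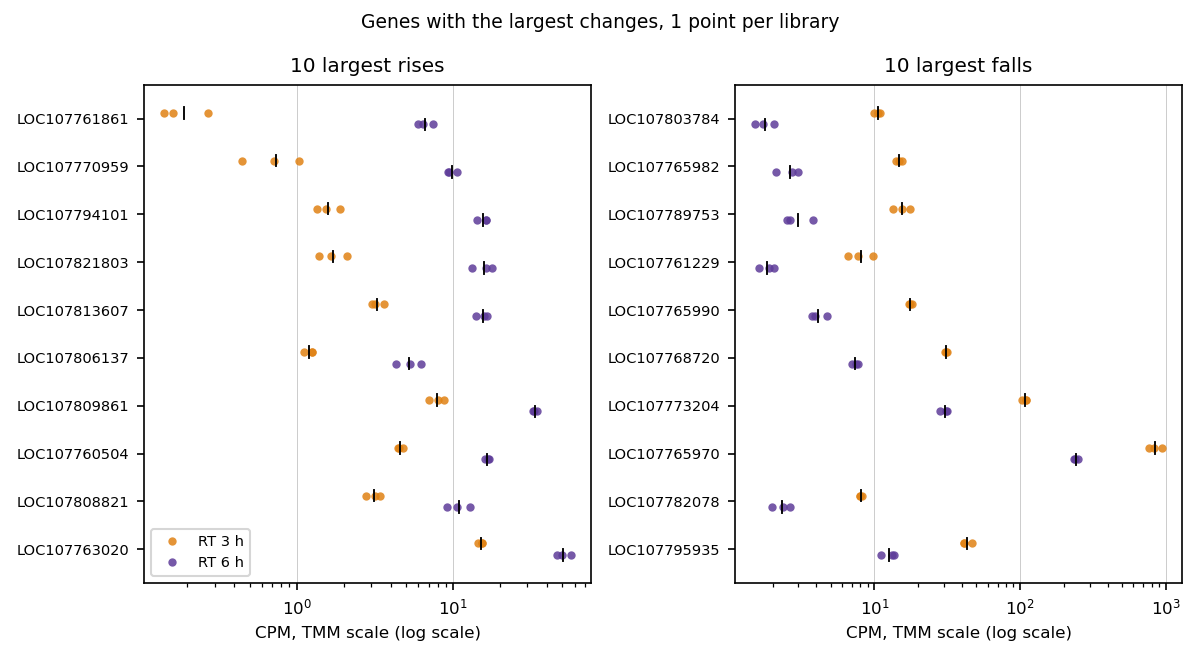
CPM (TMM scale, log axis) of the 10 largest rises (left) and the 10 largest falls (right) with a group mean of at least 5 CPM, 1 point per library, orange for RT 3 h and purple for RT 6 h, with a black line at each group mean. Only genes whose groups did not overlap were picked, so the points of the times are separate in each by selection. Examples are LOC107761861 (0.143 to 0.270 CPM against 5.97 to 7.44 CPM) and LOC107803784 (9.96 to 11.0 CPM against 1.53 to 2.03 CPM).

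Transcriptional regulators, proteins that bind DNA or chromatin and set transcription rates, moved about as often as other genes. The study assigned 1319 tobacco genes to regulator families by homology to Arabidopsis, of which 1272 were tested here. Past both limits, 15 were higher (1.18%) and 14 lower (1.1%), beside 0.911% and 0.785% of all tested genes. Past the FDR limit alone, 65 were higher (5.11%) and 83 lower (6.53%), beside 7.39% and 7.92%, and their median log2FC was 0.012 beside 0.011. The families came from an Arabidopsis database, and the tobacco genes are the homologs that were detected in these samples. The count of higher regulators was 7 without RT 3 h replicate 2, 8 without RT 6 h replicate 1 and 7 without RT 6 h replicate 2, and 13 of the 29 kept their call whichever library was left out.

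MYB factors, a large family of activators and repressors, had 3 members higher past both limits among 53 tested, and 6 higher and 0 lower past edgeR's FDR limit (median log2FC 0.181). These were 5.66% past both limits on the higher side, beside 0.911% of all genes, and 11.3% past the FDR limit, beside 7.39%, and on plain totals 3 were higher and 1 lower past the FDR limit. At an unadjusted p under 0.05 edgeR counted 18 higher and 4 lower, and DESeq2 at the FDR limit 5 higher and 0 lower. LOC107820576, a homolog of MYB73, had 1.30, 1.61 and 1.00 CPM at RT 3 h and 2.39, 3.18 and 3.34 CPM at RT 6 h (log2FC 1.18 ± 0.20 SE, FDR 3.59e-05). LOC107791613, another MYB73 homolog, went from a mean of 0.436 to 1.23 CPM (FDR 0.00107), and its FDR was 0.0214 without RT 6 h replicate 1, 0.00879 without RT 3 h replicate 2 and 0.00655 without RT 3 h replicate 3. Of 25 NAC factors, 2 rose and 0 fell past edgeR's FDR limit (8.0% and 0.0%, beside 7.39% and 7.92% of all genes). The median log2FC of the NAC factors was -0.029, beside 0.011 for all genes. At an unadjusted p under 0.05 edgeR counted 4 higher and 4 lower, and DESeq2 at the FDR limit 0 and 0. Both risen genes, for which DESeq2 gave no adjusted p, were homologs of SOG1, the NAC factor that directs the response to DNA damage in Arabidopsis. LOC107760509 had 0.324, 0.321 and 0.386 CPM and then 0.972, 1.00 and 0.907 CPM (log2FC 1.47 ± 0.32 SE, FDR 7.25e-04). LOC107780158 had 0.162, 0.214 and 0.309 CPM and then 0.884, 0.764 and 0.660 CPM (log2FC 1.72 ± 0.38 SE, FDR 8.89e-04). Neither pair of groups overlapped, but both genes were near the limit of detection: the FDR of LOC107760509 was 0.00549 without RT 3 h replicate 2 and 0.00534 without RT 6 h replicate 2, and that of LOC107780158 was 0.00626 without RT 3 h replicate 2 and 0.00624 without RT 6 h replicate 1.

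Of the chromatin families, 5 of 32 Jumonji genes (15.6%), 2 of 57 SNF2 genes (3.51%) and 2 of 44 SET genes (4.55%) passed the FDR limit, beside 15.3% of all genes. JMJ13, of the Jumonji family, is a histone demethylase that removes a repressive methyl mark from histone H3. Its homolog LOC107808546 had 36.5, 36.1 and 36.5 CPM at RT 3 h and 17.9, 17.1 and 17.03 CPM at RT 6 h (log2FC -1.07 ± 0.07 SE, FDR 2.39e-12), and the libraries of each time lay close together. Another homolog, LOC107788759, fell from a mean of 11.9 to 7.26 CPM (log2FC -0.71, FDR 1.41e-06). In contrast, LOC107828589 rose from 2.27 to 4.30 CPM (log2FC 0.92, FDR 3.00e-05), and the other 3 of the 6 tested homologs did not pass. LOC107765939, a homolog of ATXR5, which adds a single methyl group to histone H3, had 3.32, 4.46 and 4.94 CPM and then 1.94, 1.69 and 2.10 CPM (log2FC -1.15 ± 0.17 SE, FDR 5.72e-06). LOC107801954, a homolog of the cell cycle repressor RBR1, rose from 3.70 to 6.45 CPM (log2FC 0.80, FDR 1.82e-04), with an FDR of 0.00559 without RT 6 h replicate 3.

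Other regulators that passed both limits were spread over families. The heat shock factor homolog of HSFB2b, LOC107769826, a repressor-type member in Arabidopsis, had 3.24, 2.78 and 3.47 CPM at RT 3 h and 1.37, 1.17 and 1.24 CPM at RT 6 h without heat (log2FC -1.33 ± 0.18 SE, FDR 2.07e-06). LOC107797608, a homolog of HSFA5, went the other way from a low level, with 0.203 and 0.672 CPM (FDR 0.00197). On plain totals its FDR was 0.00522, and it rose to 0.0141 without RT 3 h replicate 3, 0.0103 without RT 6 h replicate 1, 0.00812 without RT 6 h replicate 3 and 0.00539 without RT 3 h replicate 2. The G2-like factors had 0 members higher and 4 lower past the FDR limit of edgeR among 20, beside 7.39% and 7.92% of all genes. The counts were 3 and 10 at an unadjusted p under 0.05 and 0 and 3 with DESeq2. On plain totals they were 0 and 9, beside 726 and 2991 of all tested genes. Of the G2-like factors, LOC107769242 had 5.63, 5.46 and 5.06 CPM and then 1.94, 1.53 and 2.47 CPM (log2FC -1.44 ± 0.16 SE, FDR 4.50e-08).

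GRAS factors, regulators of meristems and hormone responses in Arabidopsis, had 1 member higher and 5 lower past the FDR limit among 16 (6.25% and 31.2%, beside 7.39% and 7.92% of all genes), and all 5 that passed on plain totals were lower. LOC107792020, a homolog of SCL8, fell from 2.44 to 1.000 CPM (log2FC -1.28, FDR 5.43e-05). Both tested homologs of NF-YB7, a histone-fold subunit of the CCAAT-binding complex, fell: LOC107808081 had 17.5, 16.5 and 15.9 CPM and then 9.02, 7.76 and 7.79 CPM (log2FC -1.02, FDR 1.00e-09), and LOC107766832 had a log2FC of -0.70 (FDR 5.43e-07). The log2FC of LOC107808081 was -0.99 without RT 3 h replicate 1, and -0.99 and -0.99 without RT 6 h replicates 2 and 3, just under the fold limit. The zinc finger gene LOC107826232 of the C3H family fell from 15.1 to 7.21 CPM (log2FC -1.06, FDR 6.70e-10), and the cold shock domain gene LOC107760151 from 1.78 to 0.628 CPM (log2FC -1.49, FDR 5.78e-05).

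Homologs of AGL30, AGL104, WRKY2 and WRKY34 were picked after their values had been seen. AGL30 and AGL104 belong to the MIKC* MADS-box factors, which act as dimers on genes of late pollen maturation in Arabidopsis. The whole MADS family moved both ways. Of 28 tested genes, 6 were higher and 4 lower past the FDR limit (21.4% and 14.3%, beside 7.39% and 7.92% of all genes), and 4 and 4 on plain totals. Past both limits 2 were higher and 2 lower, and 0 of these 4 kept their call whichever library was left out. The AGL104 homolog LOC107806091 had 37.4, 42.0 and 43.7 CPM at RT 3 h and 64.2, 70.9 and 68.9 CPM at RT 6 h (log2FC 0.73 ± 0.07 SE, FDR 1.78e-09). The other AGL104 homolog, LOC107778759, had 112, 125 and 126 CPM and then 156, 167 and 167 CPM (log2FC 0.44 ± 0.06 SE, FDR 1.03e-06). Among AGL30 homologs, LOC107804730 had 299.6, 335 and 342 CPM and then 413, 424 and 426 CPM (log2FC 0.37 ± 0.05 SE, FDR 4.58e-06). In these genes RT 3 h replicate 1 was the lowest library and the groups did not overlap. The other AGL30 homolog, LOC107817880, moved from 448 to 520.0 CPM with a log2FC of 0.22 that passed narrowly (FDR 0.00331). With plain library totals its log2FC was 0.07 (FDR 0.289), its FDR was 0.00761 without RT 3 h replicate 1, and between 0.00768 and 0.0284 without RT 3 h replicate 2 or any of the RT 6 h libraries.

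WRKY2 and WRKY34 act in pollen development in Arabidopsis. The most abundant WRKY2 homolog, LOC107806655, had 355, 384 and 384 CPM at RT 3 h and 438, 456 and 464 CPM at RT 6 h (log2FC 0.27, FDR 1.45e-04). With plain totals its FDR was 0.0365. The other WRKY2 homologs, LOC107780258 and LOC107817492, also rose, with log2FC values of 0.40 and 0.37, but had FDRs of 0.0324 and 0.0535 on plain totals. Without RT 6 h replicate 1 the FDR of LOC107780258 was 0.0101, and that of LOC107817492 was 0.00609 without RT 3 h replicate 2 and 0.0301 without RT 6 h replicate 2. The WRKY34 homolog LOC107786660 rose from 252 to 297 CPM (log2FC 0.24, FDR 6.14e-04), with an FDR of 0.172 on plain totals and 0.00653 without RT 6 h replicate 2. Of 21 tested WRKY genes, 6 were higher and 3 lower past the FDR limit (28.6% and 14.3%, beside 7.39% and 7.92% of all genes), and 0 and 4 on plain totals. Both tested homologs of AT2G38470 were among the higher ones, with log2FC values of 0.834 and 1.607. Homologs of WRKY4, a defence regulator, went down: 3 of 5 tested fell past the FDR limit. The largest of these falls was LOC107808636, from 29.6, 24.9 and 25.4 CPM to 15.3, 15.6 and 13.7 CPM (log2FC -0.84 ± 0.08 SE, FDR 6.61e-09), a gene that overlaps another one, so that its reads in a non-stranded library may belong to either.

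All 3 homologs of BT4, a BTB and TAZ domain protein, fell. LOC107800910 had 273, 261 and 247 CPM at RT 3 h and 167, 155 and 155 CPM at RT 6 h (log2FC -0.71 ± 0.05 SE, FDR 7.52e-11). LOC107761235 had 142, 134 and 132 CPM and then 81.9, 76.7 and 82.8 CPM (log2FC -0.76 ± 0.06 SE, FDR 4.03e-11), again without overlap. The third, LOC107767351, was near 3.13 CPM at RT 3 h and passed narrowly (FDR 0.00313); its FDR lay between 0.00527 and 0.0353 without RT 3 h replicate 3 or any RT 6 h library. BT1, of the same domain family, had a homolog that rose, LOC107768035, from 0.974 to 2.48 CPM (log2FC 1.34, FDR 4.58e-05).

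LIM proteins bundle actin filaments, and the plant PLIM forms are pollen-enriched. Of 13 tested LIM genes, 4 were higher and 5 lower past the FDR limit (69.2%, beside 15.3% of all genes). Several are among the most abundant genes, of which 41.7% passed in the highest of the 5 level groups, and with plain totals all 7 that passed were lower. The PLIM2c homolog LOC107806130 had 763, 735 and 744 CPM at RT 3 h and 559, 541 and 526 CPM at RT 6 h (log2FC -0.46 ± 0.05 SE, FDR 2.57e-08). Its groups were apart, and so were those of LOC107823806, a homolog of WLIM2b, at 591, 529 and 494 CPM and then 411, 378 and 359 CPM (log2FC -0.49 ± 0.06 SE, FDR 3.70e-07). LOC107815816, a homolog of WLIM2a, fell from 238 to 163 CPM (log2FC -0.55) and LOC107802998, a homolog of WLIM1, from 509 to 417 CPM (log2FC -0.29). A second WLIM2b homolog, LOC107792541, went from 3.72 to 5.40 CPM (log2FC 0.54, FDR 0.00363), and its FDR was 0.0363 on plain totals and 0.00507 to 0.0475 without RT 3 h replicate 2 or any RT 6 h library. Of the PLIM2b homologs, LOC107763633 fell from 149 to 125 CPM (log2FC -0.26, FDR 4.05e-04, or 0.00535 without RT 6 h replicate 1). The PLIM2b homologs LOC107796302 and LOC107784827 went from means of 1053 and 925 CPM to 1259 and 1082 CPM (FDRs 2.37e-04 and 0.0014), but their FDRs were 0.044 and 0.167 on plain totals. Without RT 3 h replicate 2 the FDRs of this pair were 0.00592 and 0.016, without RT 6 h replicate 3 they were 0.00527 and 0.0167, and without RT 6 h replicate 2 that of LOC107784827 was 0.0194.

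Genes of lipid metabolism, which supply membrane and storage lipids, fell more often than they rose at the FDR limit, by small amounts. The study listed homologs of Arabidopsis lipid genes, 709 of which were found in the count tables and 699 tested. Past both limits, 7 were higher and 7 lower, 1.0% in each direction beside 0.911% and 0.785% of all tested genes. Past the FDR limit alone, 45 were higher (6.44%) and 86 lower (12.3%), beside 7.39% and 7.92%, with a median log2FC of -0.003 beside 0.011. On plain totals the counts were 17 higher and 150 lower, beside 726 and 2991 of all tested genes. The Arabidopsis list came from outside sources, and the tobacco genes on it are the homologs that were detected in these samples. Only 4 of the 14 kept their call whichever library was left out: the count of higher genes was 4 without RT 3 h replicate 2 and 3 without RT 6 h replicate 2, and the count of lower genes was 2 without RT 3 h replicate 2 and 3 without RT 6 h replicate 2 or replicate 3.

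**Figure D3:**
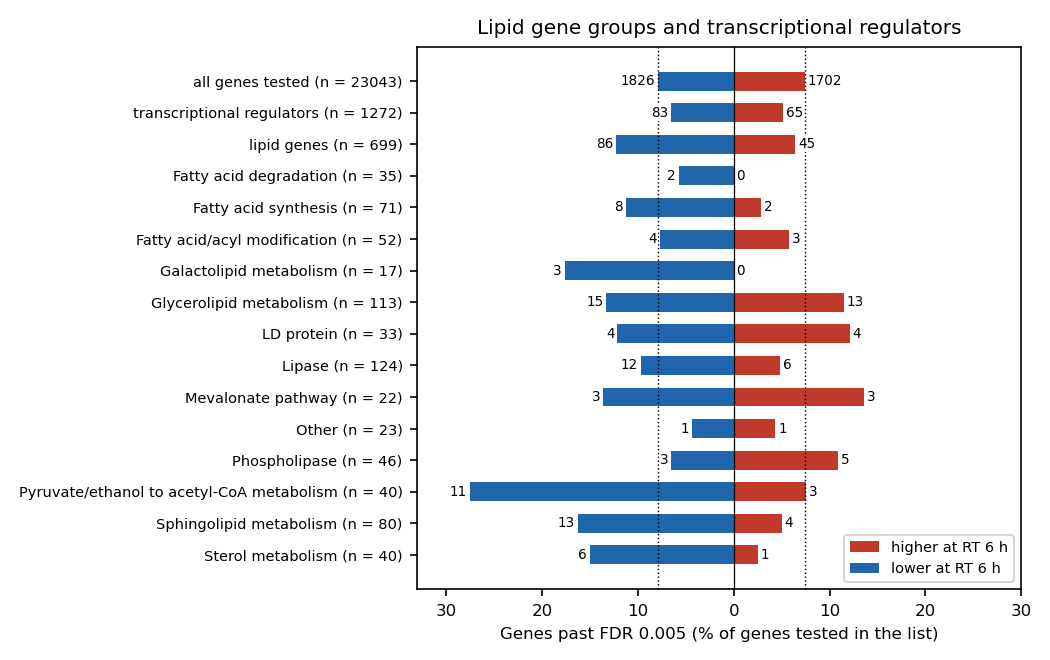
Share of tested genes past an FDR of 0.005 in each lipid gene group of at least 15 tested genes, in regulators and in all tested genes (percent, horizontal axis), red to the right for higher and blue to the left for lower at RT 6 h, with the number of genes at each bar and dotted lines at the shares of all genes (7.39% and 7.92%). The bars of sphingolipid metabolism (4 higher, 13 lower of 80) and of pyruvate or ethanol to acetyl-CoA (3 higher, 11 lower of 40) reach past the dotted line on the lower side.

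Sphingolipids are ceramide-based lipids of the plasma membrane, and 4 of the 80 tested genes of their metabolism rose and 13 fell past the FDR limit (5.0% and 16.2%, beside 7.39% and 7.92% of all genes). On plain totals 1 rose and 26 fell. LOC107784649, a homolog of glucosylceramide synthase (GCS), which attaches glucose to ceramide, had 199, 192 and 187 CPM at RT 3 h and 117, 107 and 117 CPM at RT 6 h (log2FC -0.76 ± 0.05 SE, FDR 2.61e-11). LOC107820623, a homolog of the ceramide synthase LOH2, had 61.2, 57.9 and 51.4 CPM and then 34.4, 32.1 and 33.6 CPM (log2FC -0.77 ± 0.07 SE, FDR 1.27e-09). Both genes had groups that did not overlap. Another LOH2 homolog, LOC107776446, fell as well (log2FC -0.73), while LOC107798179 rose from 13.6 to 17.5 CPM (FDR 0.00106) but had an FDR of 0.0662 on plain totals. The FDR of LOC107798179 was also between 0.00522 and 0.00949 without RT 3 h replicate 2 or 3 or RT 6 h replicate 1 or 3.

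Hydroxylases and desaturases act on the sphingobase and fatty acid parts. Of 6 tested homologs of the sphingobase hydroxylase SBH2, LOC107793600 and LOC107767458 fell, with log2FC values of -0.95 and -0.45, and the other 4 did not pass, at -0.24 to 0.19. Of 3 tested homologs of the sphingobase desaturase DSD1, LOC107807159 and LOC107806069 fell from 176 and 148 CPM to 126 and 106 CPM, and LOC107808948 did not pass (log2FC -0.14, FDR 0.0639). Homologs of the fatty acid hydroxylases FAH1 and FAH2, LOC107821862 and LOC107813799, had log2FC values of -0.36 and -0.41. The inositolphosphorylceramide synthase homolog of IPCS3, LOC107789878, fell from 32.5 to 18.0 CPM (log2FC -0.85, FDR 3.59e-09). On the breakdown side, LOC107794399, a homolog of the sphingobase phosphate lyase DPL1, rose, with 3.32, 3.67 and 4.05 CPM at RT 3 h and 7.95, 7.19 and 6.72 CPM at RT 6 h (log2FC 0.98 ± 0.12 SE, FDR 4.60e-07), without overlap.

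In fatty acid synthesis, which makes acyl chains in the plastid, 2 of 71 tested genes rose and 8 fell past the FDR limit (2.82% and 11.3%, beside 7.39% and 7.92% of all genes). All 13 that passed on plain totals were lower, and 0 passed both limits with edgeR or DESeq2 or had an unadjusted p under 0.05 with an absolute log2FC above 1. The falls included homologs of the ketoacyl synthase KASI (LOC107803192, log2FC -0.89), the dehydratase HAD (LOC107829909, -0.86), the ketoacyl reductase KAR (LOC107787149, -0.81) and the stearoyl desaturase FAB2 (LOC107830822, -0.80), all at a mean of under 20 CPM. Of 3 tested FAB2 homologs, 2 fell and 1 did not pass (log2FC -0.002), and together they had 164.9 CPM at RT 3 h and 153.7 CPM at RT 6 h. Another KAR homolog, LOC107805249, rose from 9.82 to 12.7 CPM (log2FC 0.37, FDR 0.00168), but its FDR was 0.0641 on plain totals and 0.00528 to 0.0132 without RT 3 h replicate 2 or 3 or RT 6 h replicate 1 or 2. Of 52 genes for modification of fatty acids and acyl chains, 3 rose and 4 fell (5.77% and 7.69%), and all 9 that passed on plain totals were lower. KCS11 belongs to the ketoacyl-CoA synthases that begin each round of very-long-chain elongation at the ER. Both of its tested homologs fell: LOC107771659 had 269, 247 and 221 CPM at RT 3 h and 132, 127 and 122 CPM at RT 6 h (log2FC -0.95 ± 0.06 SE, FDR 3.15e-12), and LOC107781464 went from 219 to 144 CPM (log2FC -0.61).

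The group that leads from pyruvate or ethanol to acetyl-CoA had 3 genes higher and 11 lower past the FDR limit among 40 (7.5% and 27.5%, beside 7.39% and 7.92% of all genes), and 3 and 15 on plain totals. Homologs of the plastid pyruvate dehydrogenase subunit E1 alpha, LOC107770390 and LOC107760338, had log2FC values of -0.30 and -0.39, and the FDR of LOC107770390 was 0.00567 without RT 6 h replicate 2. Homologs of its E3 subunit fell by more, LOC107794842 (LPD1) with a log2FC of -0.56 and LOC107772666 (LPD2) with -0.66. A pyruvate decarboxylase homolog, LOC107814772, the entry to the bypass through acetaldehyde, fell from 44.4, 37.7 and 34.0 CPM to 27.7, 22.7 and 23.5 CPM (log2FC -0.65 ± 0.09 SE, FDR 1.07e-06). Acetyl-CoA synthetase (ACS) homologs diverged. LOC107797258 had 11.4, 10.1 and 11.2 CPM at RT 3 h and 17.8, 16.2 and 17.9 CPM at RT 6 h (log2FC 0.66 ± 0.08 SE, FDR 6.22e-07), LOC107826681 rose as well (log2FC 0.80), and LOC107818723 fell from 61.9 to 50.3 CPM (FDR 5.31e-04), with FDRs of 0.00871 without RT 3 h replicate 2 and 0.0118 without RT 6 h replicate 2.

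Glycerolipid metabolism, which builds and remodels phospholipids, had 13 genes higher and 15 lower past the FDR limit among 113 (11.5% and 13.3%, beside 7.39% and 7.92% of all genes), and 3 higher and 2 lower past both. On plain totals the counts past the FDR limit were 5 higher and 32 lower. LPP3 removes the phosphate of phosphatidic acid to give diacylglycerol. Its homolog LOC107813721 had 0.648, 0.749 and 0.656 CPM at RT 3 h and 1.86, 1.77 and 2.27 CPM at RT 6 h (log2FC 1.51 ± 0.23 SE, FDR 1.11e-05), and LOC107805137 had 3.40, 3.07 and 3.36 CPM and then 6.19, 8.44 and 6.80 CPM (log2FC 1.13 ± 0.13 SE, FDR 1.75e-07). Neither gene overlapped between times, and the log2FC of LOC107805137 was 0.98 on plain totals and 0.99 without RT 6 h replicate 2. The reverse step, by diacylglycerol kinase, showed 2 homologs of DGK7 in opposite directions. LOC107773804 had 0, 2 and 1 counts at RT 3 h and 10, 18 and 14 at RT 6 h, at least 5.06-fold higher against a floor of 3 counts per library (edgeR FDR 2.42e-05), and DESeq2 gave no adjusted p for it. LOC107807215, the abundant homolog, fell from 129 to 101 CPM (log2FC -0.36, FDR 9.32e-06).

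PDCT exchanges head groups between phosphatidylcholine and diacylglycerol, and its 3 passing homologs all fell. LOC107808119 had 32.4, 27.5 and 25.6 CPM at RT 3 h and 17.9, 15.3 and 16.1 CPM at RT 6 h (log2FC -0.79 ± 0.09 SE, FDR 4.21e-08), and LOC107828623 and LOC107811211 had log2FC values of -0.54 and -0.49. The homologs of an acyltransferase gene (AT3G05510) LOC107827585 and LOC107803757 fell from 4.78 and 1.44 CPM to 2.09 and 0.591 CPM. Without RT 6 h replicate 2 the log2FC of LOC107803757 was -0.98 (FDR 0.0167), and without RT 3 h replicate 3 its FDR was 0.00541. LPAT2, which adds the acyl chain at the middle position of phosphatidic acid, had 3 homologs that rose, LOC107762164, LOC107802741 and LOC107815233 (log2FC 0.46, 0.38 and 0.31). On plain totals their FDRs were 0.00403, 0.0226 and 0.0662, and that of LOC107815233 was 0.00841 without RT 6 h replicate 2. PDAT1 moves an acyl chain from a phospholipid to diacylglycerol, and 3 of its 5 tested homologs passed. Of these only LOC107809139 (64.3 to 83.6 CPM, log2FC 0.38) did so whichever library was left out, and on plain totals its FDR was 0.00525.

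Genes for storage lipid synthesis and for droplet coats differed in direction among themselves. DGAT1 makes triacylglycerol from diacylglycerol. Its 4 tested homologs together had 35.93 CPM at RT 3 h and 30.88 CPM at RT 6 h, and 2 of them fell while 2 did not pass. LOC107784357 went from 13.1 to 9.60 CPM (FDR 8.60e-04) and LOC107830919 from 1.08 to 0.419 CPM (FDR 0.00111). Without RT 6 h replicate 2 these FDRs were 0.0181 and 0.0135, without RT 3 h replicate 2 they were 0.00515 and 0.0132, and for LOC107784357 they were 0.00613 and 0.00522 without RT 3 h replicate 3 and without RT 6 h replicate 1. The lipid droplet coat protein LDAP1 had 2 homologs that rose alike. LOC107804268 had 42.2, 44.8 and 46.9 CPM at RT 3 h and 74.1, 72.3 and 71.7 CPM at RT 6 h (log2FC 0.70 ± 0.06 SE, FDR 6.42e-10), and LOC107765167 had 42.8, 44.9 and 46.0 CPM and then 68.5, 70.8 and 66.0 CPM (log2FC 0.62 ± 0.06 SE, FDR 6.30e-09). Neither overlapped between times. The 33 droplet protein genes had 4 members higher and 4 lower past the FDR limit in all (12.1% in each direction), and 2 and 8 on plain totals. An oleosin homolog (OLE8), LOC107780677, fell from 20.1 to 14.1 CPM (FDR 3.23e-04, or 0.00996 without RT 6 h replicate 2).

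Among lipases, which release fatty acids from storage or membrane lipids, 6 rose and 12 fell past the FDR limit of 124 tested (4.84% and 9.68%, beside 7.39% and 7.92% of all genes), and on plain totals 1 and 15. The triacylglycerol lipase homolog of SDP1, LOC107786500, had 159.6, 157 and 134 CPM at RT 3 h and 109.9, 107 and 97.3 CPM at RT 6 h (log2FC -0.52 ± 0.06 SE, FDR 4.10e-07). Homologs of a GDSL-type lipase (AT1G71250) fell together, LOC107786539 from 129 to 72.1 CPM and LOC107777541 from 109 to 65.5 CPM. LOC107831342, listed as a lipase, went from 33.3 to 16.6 CPM with a log2FC at the fold limit, -1.004, which it missed without RT 3 h replicate 2 (-0.999) and without RT 6 h replicate 3 (-0.95). Of 46 genes that the study grouped as phospholipases, 5 rose and 3 fell past the FDR limit (10.9% and 6.52%), and on plain totals 3 and 5. A homolog of phospholipase D delta, LOC107791498, fell from 279 to 211 CPM (log2FC -0.41, FDR 6.51e-07).

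The mevalonate pathway, which makes the precursor of sterols, had 3 genes higher and 3 lower past the FDR limit among 22 (13.6% in each direction, beside 7.39% and 7.92% of all genes), and 2 higher and 5 lower on plain totals. HMG-CoA synthase (MVA1) forms the substrate that HMG-CoA reductase (HMG1) reduces. Of 4 tested MVA1 homologs 2 fell and 2 did not pass, and of 7 tested HMG1 homologs 3 rose and 4 did not pass. The MVA1 homolog LOC107777352 had 352, 341 and 330.3 CPM at RT 3 h and 201, 191 and 208 CPM at RT 6 h (log2FC -0.77 ± 0.05 SE, FDR 7.41e-12). The HMG1 homolog LOC107777769 had 1076, 1269 and 1347 CPM and then 1489, 1620.1 and 1617 CPM (log2FC 0.36 ± 0.06 SE, FDR 5.08e-05), and LOC107772411 and LOC107770799 rose with log2FC values of 0.38 and 0.29. RT 3 h replicate 1 was the lowest library in LOC107777769 and no library of one time reached those of the other. On plain totals the FDR of LOC107770799 was 0.0375. Of 40 sterol genes, 1 rose and 6 fell past the FDR limit (2.5% and 15.0%), and all 8 that passed on plain totals were lower. The falls included homologs of the sterol methyl oxidase SMO1-1 (LOC107798822, 481 to 331 CPM, log2FC -0.54), the squalene epoxidase XF1 (LOC107828762, 636 to 521 CPM) and the squalene synthase SQS1 (LOC107791556, 199 to 162 CPM).

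The remaining lipid genes past both limits were at low levels: homologs of the aldehyde dehydrogenase ALDH2B7 (LOC107779989, 0.746 to 1.57 CPM), the sterol methyltransferase SMT2 (LOC107821329, 0.478 to 1.17 CPM) and the lipase ARAB-1 (LOC107773645, 1.01 to 2.21 CPM) rose, and homologs of the steroleosin HSD1 (LOC107771906, 1.28 to 0.572 CPM), the sterol dehydrogenase 3BETAHSD (LOC107768308, 1.36 to 0.636 CPM) and the lipase SGR2 (LOC107827574, 2.54 to 1.27 CPM) fell. Without RT 3 h replicate 2 all 6 missed a limit, with FDRs from 0.00308 for LOC107773645, whose log2FC was then 0.96, to 0.0232 for LOC107821329. Without RT 6 h replicate 2, 5 missed one, and without any of the other libraries 2 to 4. On plain totals the 3 rises missed a limit as well, LOC107779989 and LOC107773645 with log2FC values of 0.92 and 0.98 and LOC107821329 with an FDR of 0.0052.

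Ion pumps and transporters were examined through homolog sets chosen after values had been seen. Plasma membrane proton pumps, which tip growth is known to need, had 3 genes higher and 1 lower past the FDR limit among 12 (25.0% and 8.33%, beside 7.39% and 7.92% of all genes), and the single one that passed on plain totals was lower. The pollen form AHA8 had 3 tested homologs. LOC107804769 had 4480.3, 5303 and 5537 CPM at RT 3 h and 6013, 6295 and 6315 CPM at RT 6 h (log2FC 0.28 ± 0.06 SE, FDR 4.33e-04), going from 1470.4 to 1787 RPKM. LOC107783148 had 4608, 5378 and 5556 CPM and then 5852, 6121 and 6003 CPM (log2FC 0.21 ± 0.05 SE, FDR 0.00468). LOC107778795, with a mean of 3669 CPM at RT 3 h and 4064 CPM at RT 6 h, did not pass (FDR 0.0234). In all 3 the RT 3 h libraries lay below the RT 6 h libraries, with RT 3 h replicate 1 the lowest, but the calls were not firm. On plain totals the FDRs of LOC107804769 and LOC107783148 were 0.0212 and 0.255, the FDR of LOC107804769 was 0.00728 and 0.00569 without RT 6 h replicates 2 and 3, and that of LOC107783148 missed the limit without any library but RT 3 h replicate 3, at 0.0124 to 0.0425. The remaining rise, of LOC107831565 (a homolog of AT4G30190), was from 2.02 to 3.23 CPM (FDR 0.00236), with an FDR of 0.0165 on plain totals and 0.0147 to 0.0161 without RT 3 h replicate 2 or RT 6 h replicate 1 or 3. The AHA9 homolog LOC107763794 fell from 83.5 to 55.0 CPM (log2FC -0.60, FDR 7.49e-09), while the abundant LOC107774664 had 1735 and 1806 CPM (FDR 0.417).

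The vacuolar proton pump, which acidifies vacuole and Golgi, had 5 higher and 12 lower genes past the FDR limit among 64 tested subunit genes (7.81% and 18.8%, beside 7.39% and 7.92%). On plain totals all 16 that passed were lower, as were most of all genes that passed then. VHA-a1, its membrane subunit at the trans-Golgi network in Arabidopsis, had 6 tested homologs, and the abundant ones fell. LOC107818994 had 87.6, 87.9 and 82.7 CPM at RT 3 h and 38.9, 37.3 and 44.6 CPM at RT 6 h (log2FC -1.09 ± 0.07 SE, FDR 6.10e-13), and LOC107819260 had 90.9, 93.4 and 93.2 CPM and then 56.7, 52.3 and 60.6 CPM (log2FC -0.71 ± 0.06 SE, FDR 6.29e-10). Both were apart between times. LOC107785482, LOC107796568 and LOC107790686 had higher means at RT 6 h, with log2FC values of 0.43, 0.31 and 0.27, and did not pass (FDRs 0.00587, 0.0458 and 0.049). The proton-pumping pyrophosphatase AVP1 had 8 tested homologs, of which 2 fell. LOC107774827 had 32.7, 22.2 and 18.0 CPM and then 10.3, 9.81 and 8.33 CPM (log2FC -1.36 ± 0.14 SE, FDR 1.82e-08), and LOC107776628 had 24.3, 16.6 and 13.8 CPM and then 9.06, 7.32 and 8.57 CPM (log2FC -1.13 ± 0.14 SE, FDR 3.06e-07). RT 3 h replicate 1 was well above the other RT 3 h libraries in both, and without it the log2FC of LOC107776628 was -0.88. The abundant AVP1 homolog LOC107778409 had 1914 and 2077 CPM and did not pass (FDR 0.058). A homolog of the sulfate transporter SULTR3;5, LOC107758960, was among the most abundant genes that rose, with 2599, 2815 and 2832 CPM and then 3401, 3453 and 3448 CPM (log2FC 0.32 ± 0.05 SE, FDR 6.53e-06).

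In 1-carbon metabolism, all 4 homologs of the cytosolic serine hydroxymethyltransferase SHM4 rose past the FDR limit, with LOC107761184 at 368, 364 and 343 CPM and then 501, 479 and 484 CPM (log2FC 0.45 ± 0.05 SE, FDR 9.31e-08) and LOC107800464 at a log2FC of 0.44. The other SHM4 homologs, LOC107830241 and LOC107820931, had log2FC values of 0.28 and 0.21, with FDRs of 0.0695 and 0.398 on plain totals. Without RT 6 h replicate 2 these FDRs were 0.00519 and 0.0457, and that of LOC107820931 was 0.00737 to 0.0191 without RT 3 h replicate 2 or 3 or RT 6 h replicate 1 or 3. All 3 homologs of SHM6 fell, LOC107766212 from 28.4, 32.3 and 31.1 CPM to 15.8, 14.0 and 13.6 CPM (log2FC -1.08 ± 0.08 SE, FDR 2.44e-11) and LOC107832456 and LOC107826181 by log2FC values of -0.68 and -0.52. With the SHM7 homolog described above, 5 of the 16 tested genes of this enzyme rose and 4 fell (31.2% and 25.0%, beside 7.39% and 7.92% of all genes), and on plain totals 2 and 4. The set was chosen after its values had been seen, so these shares do not test whether its genes moved more often than others.

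RNA-binding proteins, also chosen after values had been seen, included one of the clearer rises. GRP8 is a glycine-rich RNA-binding protein under clock control in Arabidopsis leaves, and 3 of its 5 tested homologs rose. LOC107784861 had 11.2, 7.88 and 8.68 CPM at RT 3 h and 27.0, 27.1 and 30.5 CPM at RT 6 h (log2FC 1.61 ± 0.10 SE, FDR 5.52e-13), and its groups were far apart. LOC107760024 had 28.5, 26.5 and 29.7 CPM and then 47.3, 50.9 and 54.1 CPM (log2FC 0.85 ± 0.07 SE, FDR 2.09e-10), and LOC107818946 rose with a log2FC of 0.65. Both homologs of the poly(A)-binding protein PAB5, which is expressed in Arabidopsis reproductive tissue, rose, LOC107809091 from 4.04 to 7.88 CPM and LOC107780004 from 2.91 to 5.10 CPM. The far more abundant LOC107784553, a homolog of PAB8, rose from 154 to 206 CPM (log2FC 0.42, FDR 4.15e-07).

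Tobacco is an allotetraploid, so most Arabidopsis genes correspond to several tobacco genes. The paper reports an Arabidopsis homolog for most genes of this comparison, but the sources used here held only a part of these assignments. The counts of this paragraph thus describe that part and not tobacco gene copies in general. In that part, 3076 tested genes had a homolog, falling on 1341 Arabidopsis genes, of which 936 had at least 2 tested tobacco genes. In 99 of these, at least 2 tobacco genes passed the FDR limit: in 32 all of them rose, in 54 all fell and in 13 they went both ways. Of all tested genes, 7.39% rose and 7.92% fell past this limit. The 13 included homologs of LOH2, ACS, KAR, DGK7, JMJ13, PLIM2b and PLIM2c. Reads of close copies can be split between them in counting, which affects how such pairs share their counts.

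**Figure D4:**
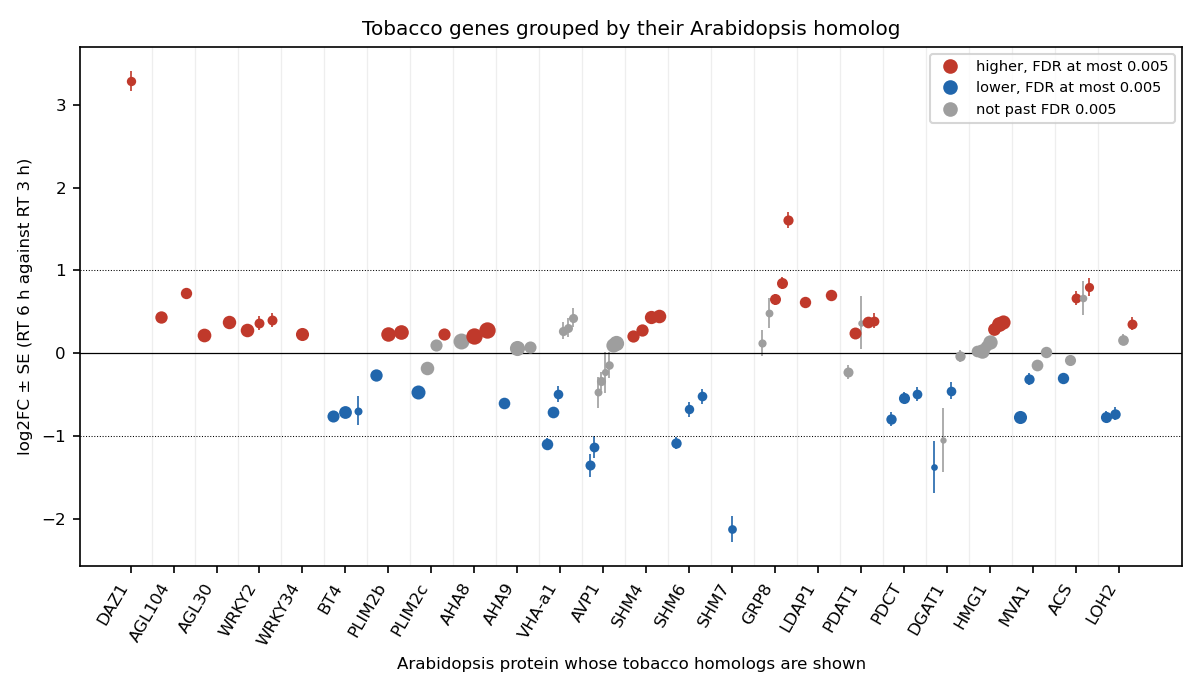
Change of tobacco genes grouped by the Arabidopsis protein they are homologs of (horizontal axis), as log2FC with its SE (vertical axis), 1 point per tobacco gene, larger for more abundant genes, red for higher and blue for lower at RT 6 h at an FDR of at most 0.005 and grey for the rest. Homologs of BT4 (log2FC -0.76 to -0.70) lie on the lower side together and those of AGL104 (0.44 and 0.73) on the higher side, while those of PLIM2b (-0.26 to 0.26) and VHA-a1 (-1.09 to 0.43) lie on both.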

How the data were processed

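RNA was sequenced from pollen tubes, and 6 of the 9 libraries of the series, 3 RT 3 h and 3 RT 6 h, were used here. The authors made non-stranded libraries, aligned single-end reads to the TN90 genome with STAR 2.5.2a and deposited raw counts per gene from featureCounts 1.5.0-p1, after demultiplexing with bcl2fastq 2.17.1.14. How reads with several matches were counted is not given in the sources used here, so genes with close copies, common in this allotetraploid, may share reads, and overlapping genes cannot be separated without strand. Organelle genes were not analysed here.

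Groups were taken from the labels. Counts were fitted with edgeR 4.0.16 in R 4.3.3 (TMM, quasi-likelihood test, no block, Benjamini-Hochberg adjustment over all 23043 genes tested), with DESeq2 1.42.0 as an alternative and limma 3.58.1 loaded by edgeR. CPM and RPKM values are on the TMM scale, with exon lengths from the deposited annotation. Positions are 1-based on TN90. The limits, an absolute log2FC above 1 and an FDR of at most 0.005, are those the study used. Python 3.11.15 and pandas 2.3.3 served for tables. In simulated counts for this comparison over 23043 genes, the fit recovered past both limits 95% of 100 genes changed by a log2FC of 2 and 92% of 100 changed by 1.5, with 1 false call. The simulation gave every gene the same spread, with no outlying library and no scaling difference between the times. Smaller changes were not simulated, so it does not cover genes past the FDR limit alone. Counting precision follows the totals, which cover counting error only.

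The genes named are the 10 largest rises and falls past both limits, with groups not overlapping and a group mean of at least 5 CPM, and the 10 genes past both limits with the highest mean CPM. For each list, up to 4 genes per direction past both limits were added by lowest FDR, and up to 2 past the FDR limit alone with the highest mean CPM. Other homologs of the same Arabidopsis genes, the pollen regulators, the proton pump, sulfate transporter, serine hydroxymethyltransferase and RNA-binding sets, and genes paired with them were chosen after their values were seen. Members and lists were chosen with earlier results of these data known. Families, pathway groups and Arabidopsis homologs come from the study's supplementary tables, 1 of which was held in part. Lists and tissue markers planned by gene description could not be built, since no descriptions were at hand. There were 0 further columns with values of samples.

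The alternatives were edgeR's likelihood ratio test, DESeq2, DESeq2's size factors, plain library totals, no filter and a stricter one (more than 1 CPM in at least 3 libraries), a fit over all 9 libraries, a replicate block, edgeR's test of whether a log2FC exceeded 1, an FDR limit of 0.05, and the omission of each library in turn.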

Additional observations from a re-analysis of the deposited data

How the results depend on the processing

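The number of genes higher at RT 6 h past both limits was 135 with DESeq2 and 135 with plain library totals, against 210, and 42 when edgeR tested against a log2FC of 1. The number lower was 339 with plain totals and 22 against a log2FC of 1, against 181. Leaving out each library in turn gave 173 to 218 higher and 157 to 229 lower genes. Among regulators, the 15 higher became 5 with DESeq2, 7 with plain totals, 7 with the stricter filter and 1 against a log2FC of 1, and ranged from 7 to 15 over the leave-outs. The 14 lower regulators became 23 with plain totals and 0 against a log2FC of 1 (edgeR, 5 at an unadjusted p under 0.05), and ranged from 11 to 18. Among lipid genes, the 7 higher became 4 with DESeq2, 3 with plain totals and 1 against a log2FC of 1, and ranged from 3 to 8. The 7 lower became 4 with DESeq2, 12 with plain totals and 0 against a log2FC of 1 (edgeR, 2 at an unadjusted p under 0.05), and ranged from 2 to 7. The cause of these shifts was not tested, apart from the smaller number of samples in a leave-out. Of 356 genes with values tested one by one, some of which had no call to lose, 59 lost their call with plain totals, 34 with DESeq2 and 16 to 84 over the leave-outs, and none reversed. Among those past both limits, 50 lost their call against a log2FC of 1 and 25 kept it. Low counts limit the calls of genes near 0.5 CPM.

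Replicate numbers are shared by both times, but same-numbered libraries deviated together only weakly, with correlations of 0.116, 0.02 and 0.07, and not every library correlated best with its own number, so the numbers were not taken as pairs. With the replicate block, 224 genes were higher and 192 lower, 15 regulators were higher and 15 lower, and 7 lipid genes were higher and 7 lower.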
